A study of Mus musculus with 9 samples.

Results

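The cytosolic ribosomal protein genes of the mouse liver were examined as 1 family. Its members were the rows of the count table whose gene symbol starts with Rpl or Rps and a number, or is *Rplp0*, *Rplp1*, *Rplp2* or *Rpsa*. Rps6k kinase genes and symbols containing -ps (pseudogenes) were left out, and a row needed at least 10 counts in 3 or more of the 9 libraries. Of 34866 rows, 205 had such a symbol, 10 were Rps6k genes, 104 were -ps rows and 6 had too few counts (*Rpl32l*, *Rpl39l*, *Rpl3l*, *Rpl6l*, *Rps3a2* and *Rps3a3*, with at most 11.7 counts in a library). The remaining 85 members, 50 with large-subunit names and 35 with small-subunit names, lie on 19 chromosomes. The rule itself uses no measured difference between groups, although the family was chosen with earlier results of these data known. All 85 passed the filter of the test. Of these, 77 carry the name of a core ribosomal protein and 8 are paralogs or other genes that share the name: *Rpl7l1*, *Rpl22l1*, *Rpl36al*, *Rpl37rt*, *Rps4l*, *Rps27l*, *Rps27rt* and *Rps19bp1*. *Rps19bp1* encodes a binding partner of a ribosomal protein and is not part of the ribosome.

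The livers came from 9 wild-type male C57BL/6J mice, bought at 5 weeks of age, with 3 mice in each of 3 groups. Control mice on Earth are called GC, mice that flew on the International Space Station for 30 days in a centrifuge giving 1 g are A1G, and mice that flew for 30 days in microgravity are MG. Poly(A) RNA of liver homogenate was sequenced, 1 library per mouse. The ground control was run at another site and at a later date than the flight, with less CO2 in the air, and the flown mice were dissected on Earth after landing. Flight, site, date and the return journey therefore cannot be told apart in MG vs. GC and A1G vs. GC, while MG and A1G mice flew together.

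A ribosome has a small subunit, which reads the mRNA, and a large subunit, which joins amino acids into protein. Each subunit is a scaffold of ribosomal RNA covered with ribosomal proteins, most of which are needed in a single copy per ribosome. In mammals the mRNAs of these proteins begin with a run of pyrimidines, the 5′ terminal oligopyrimidine (TOP) tract. Through it the kinase mTOR and the binding protein LARP1 set how much of each such mRNA is translated or stored. The liver, which makes most plasma proteins, keeps a large stock of ribosomes, and that stock follows feeding and growth signals.

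Of the 85 members, 64 were found by symbol among the RefSeq promoters (GRCm38.p6). The transcribed strand around each annotated start was searched for a TOP-like run, a C followed by at least 4 further C or T, reaching to within 5 bases before the start or beginning by transcribed base 6. Such a run was present at 33 members (51.6%), against 28.1% of all 27025 RefSeq genes. With the C placed on the first transcribed base, the share was 14 members (21.9%) against 3.01% of all genes. The 30-base windows of 5 members named below are printed here to show what the run looks like and where the annotated start lacks it, from 15 bases before the start to 15 after, with the run in capitals:
Rpl13a, chr7:45128731-45128760, minus strand: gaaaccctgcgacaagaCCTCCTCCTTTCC
Rpl15, chr14:18270972-18271001, minus strand: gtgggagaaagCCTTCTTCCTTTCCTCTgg
Rpl38, chr11:114668565-114668594, plus strand: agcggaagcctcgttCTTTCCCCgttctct
Rps24, chr14:24490663-24490692, plus strand: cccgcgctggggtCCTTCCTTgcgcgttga
Rpl36al, chr12:69184053-69184082, minus strand: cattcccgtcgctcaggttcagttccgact
A second annotated start of *Rps24*, chr14:24490738-24490767, had no run. No run was found in the window of *Rpl36al*, the member with the clearest difference between groups. Annotated starts can be off by several bases, so a window without a run says only that these letters are not there. The median log2 fold change in MG vs. GC was -0.27 over the 33 members with a run and -0.19 over the 31 without. For A1G against GC these medians were -0.23 and -0.15. Both sets hold paralogs and members with most of their counts in near-identical copies, described below. Examples are *Rpl22l1* and *Rps27* with a run, and *Rpl37rt* and *Rpl10* without. The medians are a description, and their difference was not tested.

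*Rpl36al* and *Rpl36a* encode near-identical versions of one large-subunit protein, and both are described below. Their coding sequences of 321 bases differ at 39 positions (87.9% identity), so that reads can tell them apart. The first 60 bases are shown with the differing bases in capitals:
Rpl36al, chr12:69182731-69184083, minus strand: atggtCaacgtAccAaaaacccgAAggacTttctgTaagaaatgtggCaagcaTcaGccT
Rpl36a, chrX:134585654-134588062, plus strand: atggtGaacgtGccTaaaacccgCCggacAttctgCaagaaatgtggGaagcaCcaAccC
The longest annotated transcript of *Rpl36al* has 1 exon. By contrast, *Rps27* (chr3:90212522-90213651, minus strand) and *Rps27rt* (chr9:114982366-114982739, minus strand) share all 255 bases of coding sequence, and the shared start is shown to mark a pair that reads within it cannot separate:
Rps27 and Rps27rt: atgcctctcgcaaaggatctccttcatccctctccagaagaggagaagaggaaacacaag

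The members together took a similar part of each library in the 3 groups. Their share of all estimated counts was 1.31%, 1.39% and 1.14% in the GC mice, 1.33%, 1.26% and 1.19% in A1G and 1.30%, 1.17% and 1.12% in MG. The group means were 1.28% ± 0.130 in GC, 1.26% ± 0.0678 in A1G and 1.20% ± 0.0934 in MG (SD, n = 3 mice each), and the groups overlapped. Their summed TPM (a level per transcript length that adds up to the same total in each library, as deposited) were 32770.0 ± 2900 in GC, 34835 ± 1991 in A1G and 33534 ± 2859 in MG. These 2 measures place the groups in different orders, and neither separates them. In bulk liver, fewer cells of a type and less RNA per cell cannot be told apart.

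Library-scaled counts (CPM, a gene's counts over a scaled library total) were then adjusted by TMM. It compares libraries after setting aside the genes with the most extreme ratios between libraries and the most extreme levels. The TMM factors were 0.871 to 0.980 in GC and 1.01 to 1.08 in the flown mice. In GC 6.83% to 11.4% of counts came from the major urinary protein genes, against 2.67% to 4.24% in flight. On this scale the median member stood 0.15 and 0.12 above the GC mean on the log2 scale in GC replicates 1 and 2, and -0.24 in GC replicate 3. It stood at -0.14, -0.14 and -0.27 in A1G and at -0.10, -0.22 and -0.32 in MG. GC replicate 3 was thus within the range of the flown mice. It was the lowest of the 3 GC mice for 82 of the 85 members. GC replicate 1 was the highest of all 9 mice for 49 members and GC replicate 2 for 29, while MG replicate 3 was the lowest for 42.

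**Figure D1:**
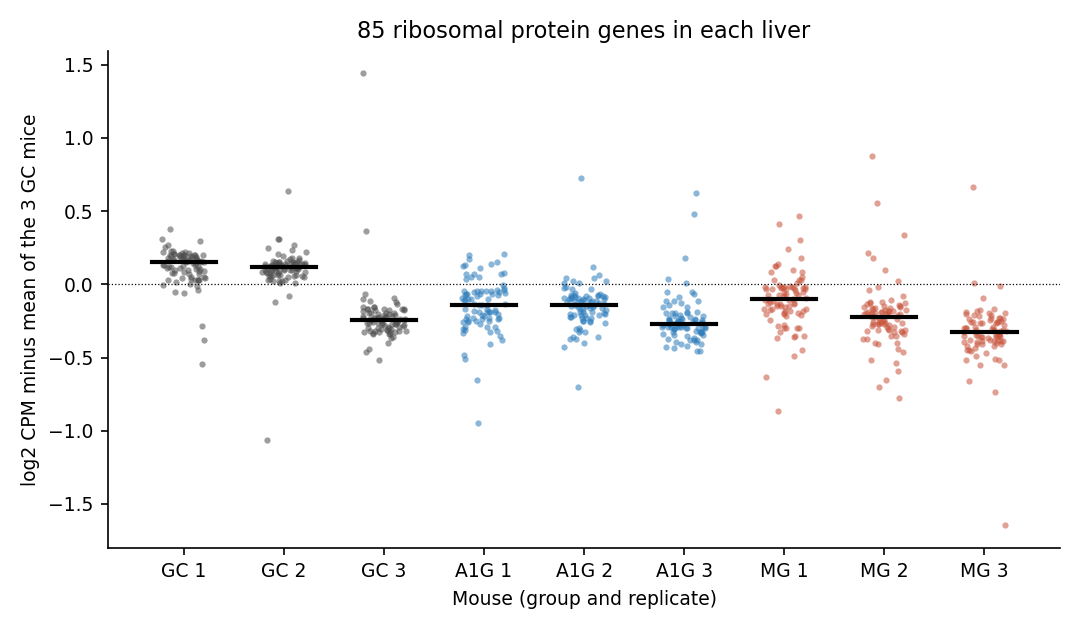
Each point is 1 of the 85 members in 1 mouse, as log2 CPM (TMM-normalized) minus its mean in the 3 GC mice, and the bar is the median. GC replicates 1 and 2 stand at 0.15 and 0.12, and the other 7 mice, GC replicate 3 among them, lie between -0.32 and -0.10.

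In MG vs. GC, most members had slightly lower levels in microgravity on the TMM scale, and 1 of them passed the test. The direction depends on the scale, since on log2(TPM + 1) the member median was 0.04, beside 0.24 for all genes. The median log2 fold change of the 85 members was -0.23, against 0.00 over the 13193 genes tested. It was below 0 for 78 members (91.8%) and for 49.4% of all genes. *Rpl36al* alone fell at an adjusted p under 0.05 (edgeR, Benjamini-Hochberg over all genes tested), which is 1 of 85 where 2.15% of all genes fell. No member rose, where 1.17% of all genes did. At an unadjusted p under 0.05, 25 members were lower and 1 was higher, against 10.2% and 8.23% of all genes. In 10 members every MG mouse lay below every GC mouse, and 12% of all genes were separated in this way, so that this share is near the background. The standard errors of the members ran from 0.10 to 0.66 with a median of 0.13, so that a shift of the median size was under 2 standard errors of a typical member.

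*Rpl36al*, a protein of the large subunit, had 135 and 134 CPM in GC replicates 1 and 2 and 117 in GC replicate 3. It had 98.7, 110 and 105 CPM in A1G and 91.5, 97.5 and 90.2 CPM in MG. Each GC mouse lay above each A1G mouse, and each A1G mouse above each MG mouse. It was the only member ordered in this way, as were 93 of all genes tested (0.705%). The log2 fold change in MG vs. GC was -0.47 ± 0.10 (SE, edgeR adjusted p = 0.0282, lower in 3 of 3 mice). A1G vs. GC gave -0.30 ± 0.10 (edgeR adjusted p = 0.210) and MG vs. A1G gave -0.17 ± 0.10 (edgeR adjusted p = 0.710), neither of which passed. The call in MG vs. GC was lost when GC replicate 1 or 2, A1G replicate 3 or any MG replicate was left out (log2 fold change -0.50 to -0.42, edgeR adjusted p 0.0536 to 0.134). It was also lost with libraries scaled to their size only (-0.33, edgeR adjusted p = 0.0771). No member was then called lower, where 1.46% of all genes were, and none with limma on log2(TPM + 1), where 1.04% of all genes were. With DESeq2 on 9 libraries 2 members fell, *Rpl36al* and *Rps24*, where 3.98% of all genes fell.

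Its relative *Rpl36a* had 56.4, 60.3 and 41.6 CPM in GC, 50.7, 48.1 and 46.9 in A1G and 38.1, 36.5 and 41.6 in MG. MG lay below A1G in every mouse, while GC replicate 3 reached the MG range. The log2 fold change of *Rpl36a* was -0.45 ± 0.14 in MG vs. GC (edgeR adjusted p = 0.103) and -0.33 ± 0.14 in MG vs. A1G (edgeR adjusted p = 0.495). *Rps24*, which helps to process the ribosomal RNA of the small subunit, had 230, 216 and 152 CPM in GC, 165, 151 and 147 in A1G and 153, 144 and 137 in MG. Its MG vs. GC value was -0.46 ± 0.14 (edgeR adjusted p = 0.110). *Rpl35a*, a large-subunit protein, had 133, 139 and 106 CPM in GC and 102, 97.8 and 89.0 in MG, without overlap. Its log2 fold change of -0.39 ± 0.12 did not pass (edgeR adjusted p = 0.107). *Rpl15*, another large-subunit protein, did not overlap between MG and GC and had -0.40 ± 0.13 (edgeR adjusted p = 0.120).

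The number of members called changed most when GC replicate 3 was left out. Without it, 12 members fell in MG vs. GC, where 2.61% of all genes fell, among them *Rpl15*, *Rpl23*, *Rpl26*, *Rpl31*, *Rpl35a*, *Rpl36a*, *Rpl36al*, *Rpl38*, *Rps24*, *Rps27l* and *Rps29*. The median was then -0.33. Without GC replicate 1 or GC replicate 2 no member was called and the medians were -0.17 and -0.17. In A1G vs. GC, leaving out GC replicate 3 gave 2 calls, *Rpl26* and *Rps24*, both lower, where 0.885% of all genes fell.

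**Figure D2:**
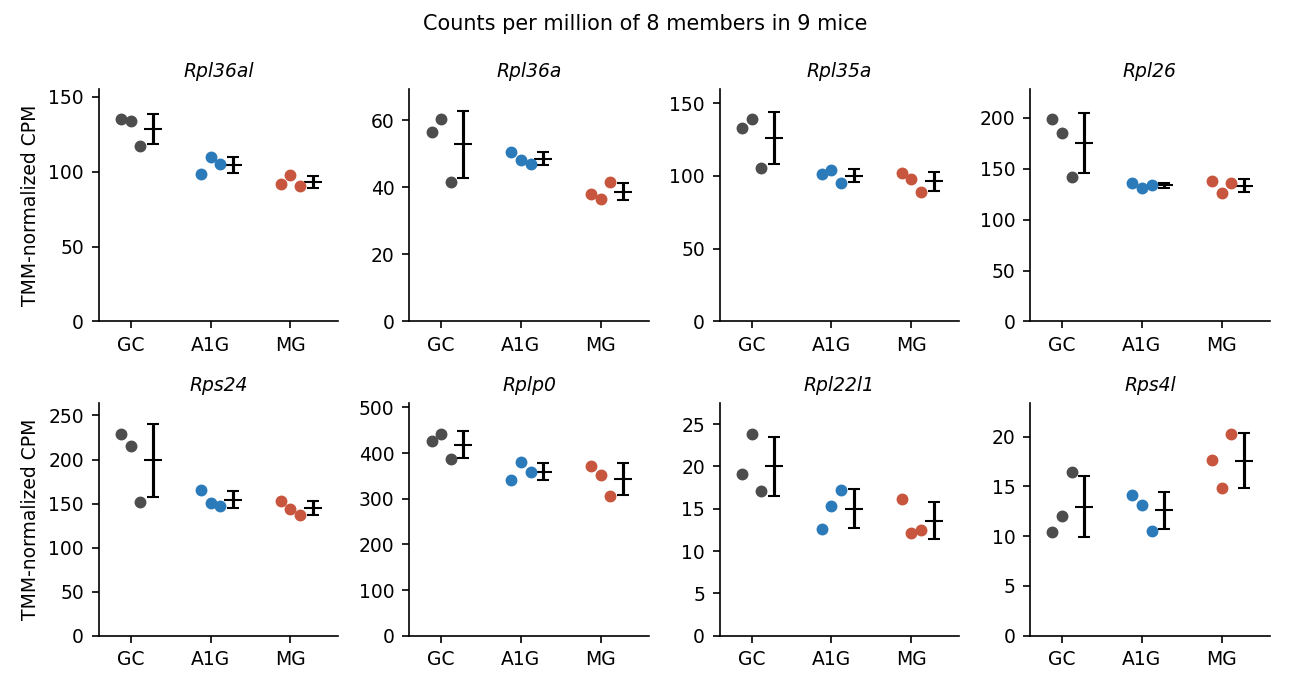
CPM (TMM-normalized) of 8 members in the 9 mice. Points are mice in the order of their replicate number, and the bar beside them is the mean with its SD (n = 3). *Rpl36al* falls from 129 ± 10.1 CPM in GC to 93.1 ± 3.90 in MG with no overlap, whereas GC replicate 3 lies near the flown mice for *Rps24*, *Rpl35a* and *Rpl26*. *Rps4l* is higher in every MG mouse than in every A1G mouse, but MG and GC overlap and it passed in no comparison.

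In A1G vs. GC, the members had nearly the same small difference on the TMM scale and none passed the test, where 0.644% of all genes did. The median log2 fold change was -0.20, against 0.00 over all genes, and 82 of 85 members were below 0, against 49.5% of all genes. edgeR gave 12 members lower and 0 higher at an unadjusted p under 0.05 (7.61% and 6.61% of all genes), and DESeq2 on the 6 libraries compared called 0 members, where it called 0.945% of all genes higher and 1.58% lower. The A1G and GC mice did not overlap for 5 members, all lower, where 9.97% of all genes were lower in this way. These were *Rpl26*, *Rpl35a*, *Rpl36al*, *Rplp0* and *Rps27a*. *Rpl26*, a large-subunit protein that also binds the mRNA of the tumour suppressor p53, had 199, 186 and 142 CPM in GC and 136, 131 and 134 CPM in A1G. Its log2 fold change was -0.39 ± 0.13 (A1G vs. GC, edgeR adjusted p = 0.193), and the MG mice stood at -0.39 ± 0.13 from GC (edgeR adjusted p = 0.115). MG vs. GC and A1G vs. GC share the 3 GC mice, and their medians are given side by side only.

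Between the flown groups the members differed little and none passed the test. The median log2 fold change in MG vs. A1G was -0.03 against -0.01 over all genes, with 57 members below 0 and 28 above, where 51.0% of all genes were below 0. The median was -0.10 without MG replicate 1 (76 members below 0), -0.07 without A1G replicate 3 (74 below 0) and 0.02 without MG replicate 3 (35 below 0). The test called 0 members, where 0.0758% of all genes did. At an unadjusted p under 0.05 edgeR gave 1 higher member (*Rps4l*) and 1 lower (*Rpl36a*), against 4.37% and 4.61% of all genes. DESeq2 on the 6 libraries compared called 0 members, where it called 0.722% of all genes higher and 0.622% lower. MG lay below A1G without overlap for *Rpl36a*, *Rpl36al*, *Rpl38*, *Rps21* and *Rps29*, where 7.8% of all genes did so. MG lay above A1G without overlap for *Rps4l* alone, where 7.62% of all genes did. *Rps21*, a small-subunit protein, had 78.8, 91.7 and 85.0 CPM in A1G and 74.6, 73.5 and 71.7 in MG, with a log2 fold change of -0.22 ± 0.13 (edgeR adjusted p = 0.710). *Rpl38*, known in mouse embryos for its part in translating Hox mRNAs, had 75.6, 63.9 and 58.4 CPM in A1G and 56.4, 56.0 and 53.4 in MG (-0.26 ± 0.16, edgeR adjusted p = 0.723).

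The 2 subunits had like values. The median was -0.23 over large-subunit members and -0.22 over small-subunit members in MG vs. GC. The 2 medians were -0.20 and -0.21 for A1G against GC, and -0.03 and -0.02 for MG against A1G. The stalk of the large subunit, which recruits elongation factors, is built from *Rplp0*, *Rplp1* and *Rplp2* and stands on *Rpl12*. *Rplp0* had 427, 443 and 386 CPM in GC, 341, 380 and 358 in A1G and 373, 352 and 306 in MG, so that every GC mouse lay above every flown mouse. Its log2 fold change was -0.29 ± 0.11 for MG (edgeR adjusted p = 0.203) and -0.22 ± 0.11 for A1G (edgeR adjusted p = 0.407), each against GC. *Rplp1* had -0.29 ± 0.13 and *Rplp2* -0.19 ± 0.14 in MG vs. GC, and the groups overlapped for both. *Rpsa*, a small-subunit protein that also occurs as a laminin receptor, had 477, 486 and 366 CPM in GC and 385, 352 and 308 in MG. Its log2 fold change in MG vs. GC was -0.35 ± 0.14 (edgeR adjusted p = 0.198), and GC replicate 3 was again below MG replicate 1.

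The 8 paralogs and other name matches had log2 fold changes from -0.56 to 0.44 in MG vs. GC. *Rpl22l1*, which stands in for *Rpl22* and has 70.2% of its aligned coding bases in common with it, had 19.1, 23.9 and 17.1 CPM in GC, 12.6, 15.3 and 17.2 in A1G and 16.1, 12.1 and 12.5 in MG. MG and GC did not overlap, and the log2 fold change was -0.56 ± 0.17 (edgeR adjusted p = 0.108). *Rps27l*, known as a target of p53, had -0.30 ± 0.12 for MG and -0.30 ± 0.11 for A1G against GC, neither of which passed. *Rps4l*, annotated in GENCODE M21 as a transcribed processed pseudogene on chromosome 6, had 10.5 to 16.4 CPM in GC, 14.2, 13.1 and 10.5 in A1G and 17.7, 14.8 and 20.3 in MG. It was higher in every MG mouse than in every A1G mouse, with a log2 fold change of 0.48 ± 0.19 (edgeR adjusted p = 0.468). *Rpl37rt*, the other member annotated as a pseudogene, had 1.56 to 4.36 CPM and a log2 fold change of 0.32 ± 0.36 in MG vs. GC. *Rpl7l1*, whose product acts in the assembly of the large subunit, had 0.02 ± 0.13 and *Rps19bp1* 0.02 ± 0.18 in that comparison, at mean levels of 34.3 and 23.2 TPM.

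Levels between genes were compared as TPM. The mean over 9 mice ran from 13.7 to 1238 TPM, with a median of 362. The highest were *Rpl13a* (1238 TPM), *Rplp1* (1236), *Rps27rt* (1034), *Rpl41* (1014) and *Rps2* (913). The lowest were *Rpl12* (13.7), *Rps27* (15.6), *Rpl5* (16.1), *Rps19bp1* (23.2) and *Rps4l* (24.8). *Rpl12*, *Rps27* and *Rpl5* encode core proteins that each ribosome contains, and their low rows go with copies elsewhere in the table. A copy was taken as a row whose transcript matched at least 95% of bases over at least 80% of a member's coding sequence. By this measure 78 members had a copy in the table, and 527 rows outside the family were copies of a member.

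In most members the copies held few counts, since 63 of the 85 had over 99% of the summed counts in their own row. In 13 members the own row held under 80%, and in 7 under 50%. The own row of *Rps27* held 2.50% of the sum, the rest being almost all in *Rps27rt*. *Rpl12* held 5.22% of the sum beside the copy *Gm10275*, *Rpl5* 7.23% beside *Gm15500*, *Rps12* 7.46% beside *Rps12-ps3*, *Rpl27* 8.13% beside *Rpl27-ps3* and *Rpl10* 10.4% beside *Rpl10-ps3*. With copies added, *Rpl5* went from 16.1 to 371 TPM, *Rpl12* from 13.7 to 489 and *Rps27* from 15.6 to 1049, within the range of the other members. Single-row values of these members, *Rpl10* among them with 0.27 ± 0.20 in MG vs. GC, are uncertain for that reason. Summed with its copies, *Rpl10* had -0.20 ± 0.12 (edgeR adjusted p = 0.415).

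**Figure D3:**
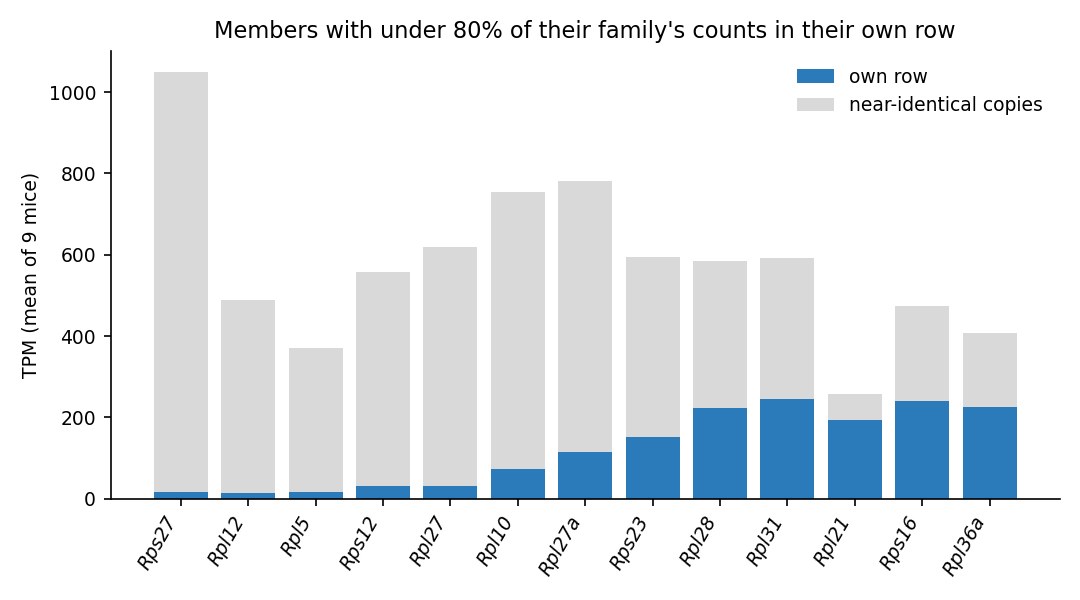
Mean TPM over 9 mice of the 13 members with under 80% of the summed counts in their own row. The lower part of each bar is the member's own row and the upper part its near-identical copies. With their copies *Rps27*, *Rpl12* and *Rpl5* reach 1049, 489 and 371 TPM.

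*Rps27* had the largest spread between mice of a group. It had 6.16, 3.77 and 74.6 TPM in GC and 5.60, 4.95 and 31.5 TPM in A1G. GC replicate 3 and A1G replicate 3 stood far above the other mice of their groups, and the MG mice had 5.76, 5.14 and 3.15 TPM. In the same mice *Rps27rt* had 738 TPM in GC replicate 3 and 1106 in A1G replicate 3. Summed, the pair had a log2 fold change of -0.01 ± 0.16 in MG vs. GC, in place of -1.48 ± 0.66 for *Rps27* alone (edgeR adjusted p = 0.256). Summing every member with its copies gave 83 families with medians of -0.23, -0.21 and -0.02 in the 3 comparisons, and *Rpl36al* again was the only one called (MG vs. GC, -0.47 ± 0.10, edgeR adjusted p = 0.0254).

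The size of the family's difference moved with the scaling, and its sign turned on TPM. With the major urinary protein genes left out of the TMM scaling, the member median was -0.22 for MG and -0.19 for A1G against GC. With library size only, the member median was -0.09 for MG and -0.02 for A1G against GC. The median of all genes then moved to 0.14 and 0.18. On log2(TPM + 1) with limma, which changes the measure, the test and the filter together, the member medians were 0.04 and 0.09 and those of all genes 0.24 and 0.24. The members stood below all genes by -0.23 and -0.20 with library size only and by -0.20 and -0.15 on log2(TPM + 1), beside -0.23 and -0.21 with TMM. On log2(TPM + 1) without a filter on low values, where all genes include many near 0, the distance was -0.04 and -0.01. Values of the members are therefore given relative to the other genes measured, and no absolute change in ribosomal protein mRNA can be read from them.

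**Figure D4:**
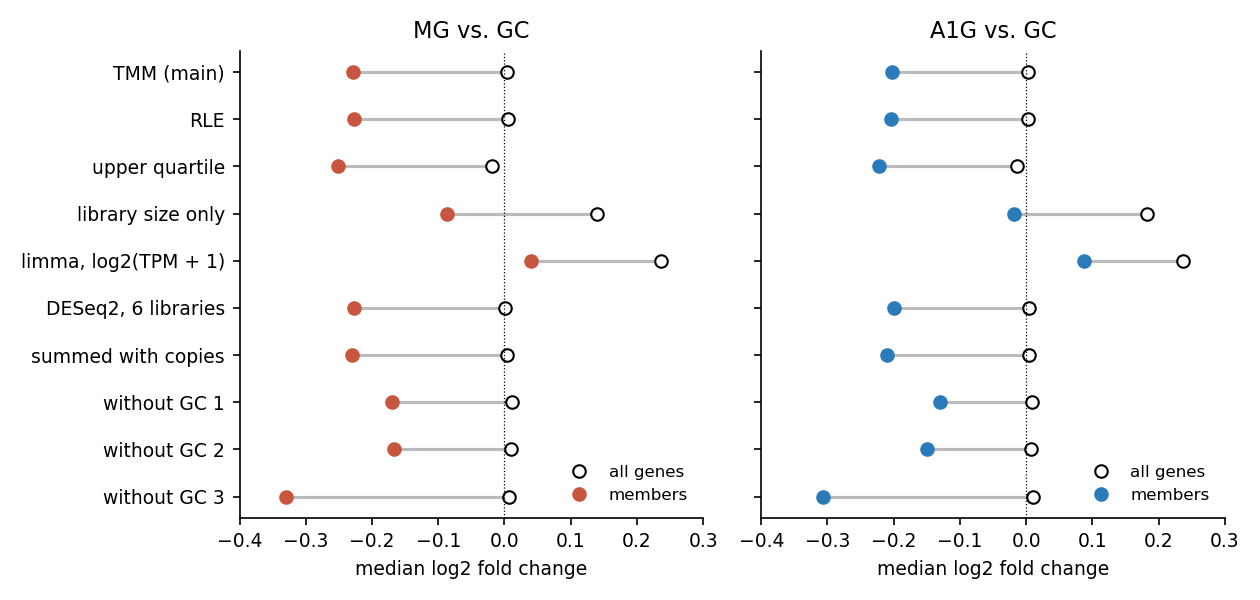
Median log2 fold change of the members (filled) and of all genes tested (open) under 10 settings, for MG vs. GC on the left and A1G vs. GC on the right. The member median goes from -0.33 without GC replicate 3 to 0.04 on log2(TPM + 1) in MG vs. GC, and the members stay below all genes in the settings drawn.

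Other genes of the ribosome and of translation were counted from lists of known function. *Fau*, whose product carries a small-subunit protein, had -0.10 ± 0.14 and *Rack1*, a scaffold on the small subunit, -0.23 ± 0.15 in MG vs. GC, and neither passed in a comparison. Of 19 measured TOP genes of translation outside the family, none passed, with medians of -0.07 for MG and -0.16 for A1G against GC, and 0.07 between the flown groups. Among these *Eif3k*, a subunit of initiation factor 3, had -0.26 ± 0.12 and *Eef1b2*, an exchange factor for elongation, -0.25 ± 0.13 in MG vs. GC. Of 31 initiation factors none passed, and their median was 0.10 in MG vs. GC. *Eif5a*, a factor that helps slow ribosomes to go on, had -0.39 ± 0.12 (edgeR adjusted p = 0.110), and *Eif4g2*, a scaffold of initiation, had 0.30 ± 0.11 (edgeR adjusted p = 0.166). None of 45 ribosome biogenesis genes passed, with medians of 0.11 for MG and 0.14 for A1G against GC. *Ubtf*, which drives transcription of ribosomal RNA, had -0.36 ± 0.11 in MG vs. GC (edgeR adjusted p = 0.112), and *Ltv1*, an assembly factor of the small subunit, 0.51 ± 0.20 (edgeR adjusted p = 0.195).

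Regulators of the family were also without a call, which is near the background for lists of this size (3.33% of all genes in MG vs. GC). None of 29 genes of mTOR and TOP control passed, with medians of 0.03 for MG and 0.05 for A1G against GC. *Eif4ebp1*, the translation repressor that mTOR inactivates, had -0.50 ± 0.14 (edgeR adjusted p = 0.0714) and *Larp4b*, an RNA-binding protein, 0.52 ± 0.14 (edgeR adjusted p = 0.0644) in MG vs. GC. None of 15 ribosome chaperones and none of 17 genes of ribosome stress and quality control passed, with medians of -0.02 and 0.13 in MG vs. GC. *Ascc3*, a helicase known in human cells for splitting collided ribosomes, had 0.55 ± 0.14 (edgeR adjusted p = 0.0645). The non-coding host genes of small nucleolar RNAs were not analysed here.

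The lists of oxidative phosphorylation and of the mitochondrial ribosome had medians below 0 as well. The nuclear genes of oxidative phosphorylation, 77 measured, had medians of -0.30 for MG and -0.23 for A1G against GC, beyond those of the members. Among them *Ndufa8*, a subunit of complex I (-0.58 ± 0.13, edgeR adjusted p = 0.0343), and *Cox5a*, a subunit of complex IV (-0.51 ± 0.12, edgeR adjusted p = 0.0481), fell in MG vs. GC. The other 75 did not pass, and 2.15% of all genes fell, so that 2 of 77 is near the background. At an unadjusted edgeR p under 0.05, 40 were lower and 1 was higher, against 10.2% and 8.23% of all genes. Of the 77, 74 were below 0, against 49.4% of all genes. In 26 every MG mouse lay below every GC mouse, against 12% of all genes. The 78 mitochondrial ribosomal proteins, the other ribosome of the cell, had medians of -0.10 and -0.07, and none passed. The 38 proteasome subunits, another large complex, had medians of 0.23 and 0.10. Of these *Psmd1*, *Psmd2*, *Psmd3* and *Psmd11*, all of the regulatory particle, rose in MG vs. GC, where 1.17% of all genes rose. *Psmd3* had 0.57 ± 0.12 (edgeR adjusted p = 0.0206). The differences between these lists and the members were not tested.

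**Figure D5:**
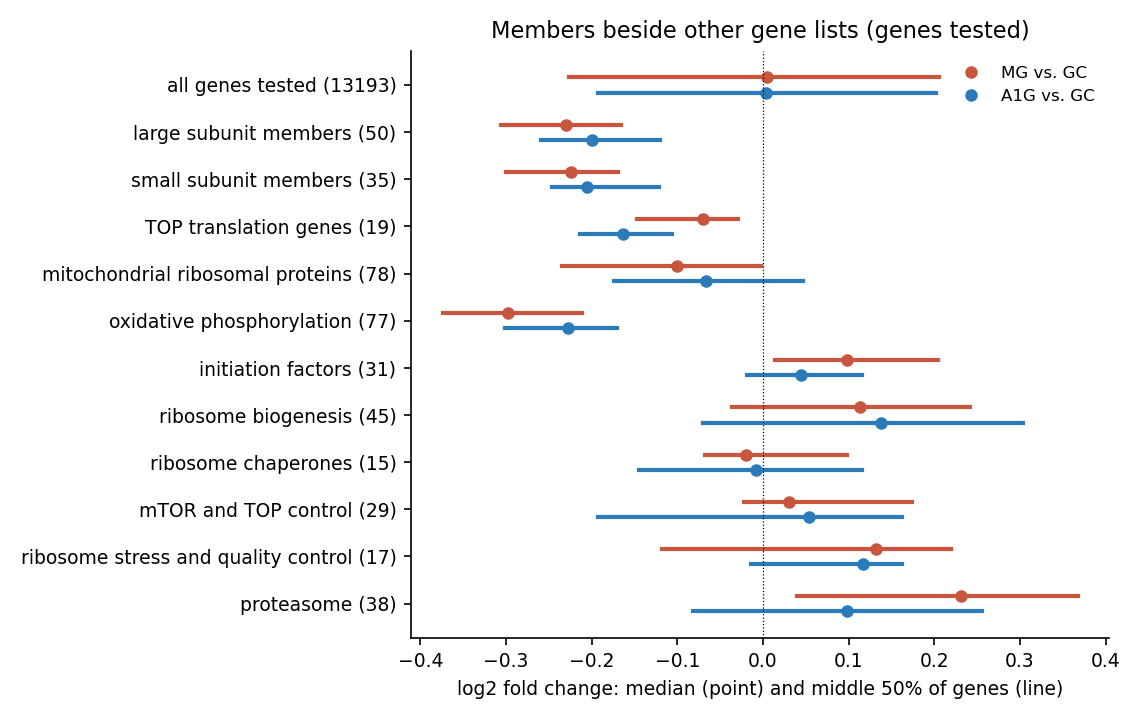
Median log2 fold change (point) and middle 50% of genes (line) of the members by subunit, of other gene lists and of all genes tested, for MG vs. GC and A1G vs. GC, with the number of genes tested in brackets. Members of the large and small subunits lie at -0.23 and -0.22 in MG vs. GC, oxidative phosphorylation at -0.30 and the proteasome at 0.23.

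Transcript length moved with the fold changes over the whole table. Outside the family, the median log2 fold change in MG vs. GC was -0.10 over 150 genes with a median transcript of up to 500 bases, -0.15 over 982 genes of 500 to 1000 bases, and 0.09 over 3240 genes above 4000 bases. In A1G vs. GC these medians were -0.15, -0.17 and 0.12. The 13 members of up to 500 bases had -0.25 for MG and -0.11 for A1G against GC, the latter not below other genes of that length. The 54 members of 500 to 1000 bases had -0.23 and -0.22. The part of length in the members' values was not tested. Cell type markers were counted for the same reason. Albumin took 5.05% to 6.47% of counts in each library, and the 5 hepatocyte markers summed to 46590.5 to 60498.2 TPM. In the edgeR fit the median log2 fold change of these 5 was -0.10 in MG vs. GC, with 3 below 0. It was -0.30 in A1G vs. GC, with 4 below 0. Of the marker lists of 9 cell types, 1 stellate cell gene was called in MG vs. GC and no other marker in a comparison. The 7 erythroid markers summed to 601 to 824 TPM in GC, 334 to 1129 in A1G and 421 to 667 in MG. Of these 5 were tested and none was called, but in MG vs. GC all 5 were below 0 with a median log2 fold change of -0.70, and for all 5 every MG mouse lay below every GC mouse in CPM. In A1G vs. GC the erythroid median was -0.20. Of the 5 cholangiocyte markers 4 were below 0 in MG vs. GC, with a median of -1.16, and none was called. Next to them, the 7 Kupffer cell markers summed to 87.8 to 136, 90.8 to 160 and 105 to 109 TPM. Neutrophil, T cell and B cell markers summed to at most 6.41 TPM in a mouse, and 1 neutrophil marker was at 0 in all mice. The part of these cells in the members' values was not tested.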

How the data were processed

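Per the submitters' processing notes, the authors used fastp 0.19.4 for trimming and Salmon 0.9.1 for quantification on GRCm38. They deposited estimated counts and TPM per gene. The annotation release is not given in the sources used here. Their tables of DESeq2 fold changes and p-values served only to pair IDs with symbols. All columns had a sample (0 without). Totals ran from 13189515 to 23738049 counts per library, and 74 members averaged 1000 counts or more, so that the spread between mice exceeded counting error. Replicates correlated at r = 0.969 to 0.983 (log2 CPM).

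Counts were rounded, filtered by filterByExpr (minimum count 10), scaled by TMM and fitted for all 9 libraries with edgeR 4.0.16 (R 4.3.3, quasi-likelihood F test, 1 coefficient per group). Adjusted p are Benjamini-Hochberg over 13193 genes. The SE is the absolute log2 fold change divided by the square root of F. Each library came from a separate mouse. Symbol-named members were matched to GENCODE M21, 75 of 85 with the same ID version, and copies were found with blastn 2.17.0. Alternatives used DESeq2 1.42.0, limma 3.58.1, other scalings, filters and sets of libraries, and 2 alternatives, summing copies and leaving the major urinary protein genes out of the scaling, were chosen after seeing the data. The procedure was tested on simulated data. Genes were named by a rule: called members, the 3 of smallest p per comparison and direction, the 5 highest and 5 lowest by TPM, stalk proteins and *Rpsa*, paralogs, the 3 of largest spread, and up to 4 per list. *Rpl15*, *Rpl38*, *Rps24* and others from counts of calls or groups without overlap were named after their values were seen. The members and lists were chosen with earlier results of these data known. Some genes of the lists are not reported here by name.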

Additional observations from a re-analysis of the deposited data

How the results depend on the processing

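In MG vs. GC, the number of members called lower was 0 with library size only, 0 with limma on log2(TPM + 1), 0 with limma on log2(TPM + 0.1), 0 with limma and unfiltered log2(TPM + 1), and 2 with DESeq2 fitted to all 9 libraries (*Rpl36al* and *Rps24*), against 1 in the main test. Of all genes, 1.46% were lower with library size only and 3.98% with DESeq2, and the 3 limma settings called 645, 652 and 261 genes in either direction. Leaving out a replicate gave 0 to 12 calls in MG vs. GC and 0 to 2 in A1G vs. GC, with 181 to 642 and 4 to 204 genes called in either direction over the whole table. With limma on TPM the median member was 0.040 for MG and 0.087 for A1G against GC under each of these 3 settings, and with library size only it was -0.018 for A1G against GC, a move in the same direction as the median of all genes. When each replicate was left out in turn the medians ran from -0.33 to -0.17 in MG vs. GC, from -0.31 to -0.13 for A1G against GC and from -0.10 to 0.016 in MG vs. A1G, the last being 0.016 without MG replicate 3. No member was called in MG vs. A1G under the alternatives tried.

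Without the 20 highest genes the members' share of counts was 1.73% in GC, 1.62% in A1G and 1.53% in MG. Without mitochondrially encoded genes it was 1.37% in GC, 1.35% in A1G and 1.29% in MG. Both are shares of a smaller total. The log2 ratio of summed shares in MG vs. GC was -0.09 by counts and 0.033 by TPM, and the cause was not tested. The adjusted p of *Rpl36al* in MG vs. GC ran from 0.00154 to 0.177 over all alternatives, and 10 of these lost the call. *Rpl26*, *Rpl35a*, *Rpl36a* and *Rps27l* in MG vs. GC and *Rpl26* in A1G vs. GC gained one without GC replicate 3.

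The labels do not say that the replicate numbers pair the mice, and the main fit did not use them. Deviations of same-numbered mice correlated at -0.01 to 0.11 (9 pairs), and those of other pairs at -0.09 to 0.04 (18 pairs). Between A1G and MG mice the same-numbered values were 0.11, 0.06 and 0.10, and the others ran from -0.09 to 0.01. Same-numbered A1G and MG mice thus correlated slightly more, and the reason was not tested. With the replicate number as a block the median member stayed at -0.23 in MG vs. GC and 1 member was called, while calls over all genes went from 439 to 509 in MG vs. GC, from 85 to 145 in A1G vs. GC and from 10 to 44 in MG vs. A1G. Depth limits the low rows, such as *Rps27* with a mean of 44.7 counts.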
